A study of Mus musculus with 7 samples.

Results

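The genes described here are 41 genes of sphingolipid metabolism, chosen by symbol from the 50686 genes in the deposited expression files. They were taken from the enzymes that build, convert and degrade ceramide, their regulators, and receptors for sphingosine phosphate. All 41 were present in every file. For the description they were sorted by textbook role into 11 genes of de novo ceramide synthesis, 3 inhibitors of that route, 10 genes of complex sphingolipid synthesis, 11 genes of breakdown, 4 enzymes of sphingosine phosphate metabolism and 2 of its receptors.

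The study compared Bodipy+ microglia, that is microglia carrying neutral lipid droplets stained by a lipophilic dye, of young and old mice after brain ischemia. Both groups were untreated C57BL/6 males. The Young group held 4 mice aged 3 to 4 months and the Old group 3 mice aged 21 to 22 months. All cells came from the forebrain, were depleted of myelin with magnetic beads, and were sorted by CD11b, CD45 and Bodipy 4 days after ischemia. No Bodipy-negative or non-ischemic library was analysed here, so the values describe an age difference within lipid-laden microglia only. Each library had 36574083 to 53002386 expected counts, of which the 41 genes took between 0.174% and 0.231%.

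One old library, Old replicate 2, stood apart from the rest, and for the 41 genes the log2 fold changes that changed sign or lost most of their size without it are given both ways. In it the 6 monocyte markers summed to 2032 TPM against 66.0 to 178.9 TPM in the other 6 libraries. The most abundant of them was Chil3 with 1217 TPM, followed by Ly6c2 with 320.0 TPM, Fn1 with 247.0 TPM, Plac8 with 158.0 TPM and Ccr2 with 87.3 TPM. All 6 were detected, and 4 of the 6 were higher in Old by an unadjusted p under 0.05 (edgeR). The 12 microglia markers, led by C1qa, summed to 14130 TPM in this library and to 25470 to 32900 TPM in the others, so the labelled cell type was present in every library. Border macrophage markers, led by Pf4, were also highest there (1001 TPM against 68.1 to 328.5 TPM). The paper describes its gated microglia as CD11b+ cells with low CD45. The part of monocytes and border macrophages in the sphingolipid values was not tested.

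Sphingolipids are membrane lipids built on a sphingoid base. Ceramide, their common intermediate, is made in the endoplasmic reticulum from serine and palmitoyl-CoA and is then converted to sphingomyelin, to glucosylceramide and the gangliosides, or to galactosylceramide and sulfatide, the glycolipids of myelin. Breakdown returns ceramide and sphingosine, and sphingosine is phosphorylated to a signalling lipid that acts on its own receptors. Microglia take up myelin and cell debris and so receive sphingolipids that must be degraded in lysosomes.

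Of the 41 genes, Galc alone passed the test across all genes, and it fell in old Bodipy+ microglia. Galc encodes the lysosomal galactosylceramidase, which degrades the main glycolipid of myelin and is deficient in Krabbe disease. Its level was 54.6, 57.5, 58.6 and 40.7 CPM (the count divided by the library total, scaled by the trimmed mean of M values) in the young libraries and 30.1, 29.5 and 27.4 CPM in the old libraries. Every old library was below every young library. The means were 52.9 ± 8.26 CPM (SD, n = 4) and 29.0 ± 1.44 CPM (SD, n = 3), a log2 fold change of old over young of -0.87 (SE 0.149), or 0.548 times the young level (edgeR quasi-likelihood test, Benjamini-Hochberg adjusted p = 0.0458). The size of the difference held when any 1 library was left out (-0.97 to -0.81), but each of the 7 omissions took the adjusted p above 0.05 (edgeR, 0.0625 to 0.158). In these non-stranded libraries 2.69% of the exonic bases of Galc are shared with the antisense gene Gm47439, and 1 of the 7 libraries gave Galc a whole count. The part of antisense reads in its value was not tested.

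Ugcg, the glucosylceramide synthase that opens the route to gangliosides, gave the next smallest p-value and was on the opposite side. It measured 11.0, 11.4, 9.02 and 8.88 CPM in the young libraries and 15.4, 19.1 and 20.7 CPM in the old libraries. The groups did not overlap, with means of 10.1 ± 1.31 CPM (SD, n = 4) and 18.4 ± 2.76 CPM (SD, n = 3). The log2 fold change was 0.87 (SE 0.168), and the adjusted p of 0.0569 missed the threshold (edgeR).

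The promoters of Galc, Ormdl2 and St3gal5 are printed as examples. Galc is the gene that passed the test. Ormdl2 is the most abundant inhibitor of ceramide synthesis, and St3gal5 the most abundant gene of complex sphingolipid synthesis. In each of them the ages did not overlap and the unadjusted p was under 0.05 (edgeR). The same held for Ugcg, B4galt6, Samd8, Gba2, Ormdl3 and Smpd2, whose promoters are not printed. The sequences are from RefSeq (GRCm38.p6), run 5′ to 3′ on the strand of the gene and stop before the first annotated exon of a coding gene. Capitals mark the CCAAT box and the GC box, whose letters are GGGCGG, on either strand. Galc lies on the minus strand and its stretch at chr12:98259460-98259709, that of Ormdl2 on the minus strand at chr10:128821646-128821879, and that of St3gal5 on the plus strand at chr6:72097358-72097591.
Galc: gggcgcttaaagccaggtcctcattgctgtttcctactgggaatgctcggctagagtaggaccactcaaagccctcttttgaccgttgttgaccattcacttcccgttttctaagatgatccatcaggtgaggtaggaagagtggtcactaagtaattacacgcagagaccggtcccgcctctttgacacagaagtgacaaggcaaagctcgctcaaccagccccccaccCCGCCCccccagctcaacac
Ormdl2: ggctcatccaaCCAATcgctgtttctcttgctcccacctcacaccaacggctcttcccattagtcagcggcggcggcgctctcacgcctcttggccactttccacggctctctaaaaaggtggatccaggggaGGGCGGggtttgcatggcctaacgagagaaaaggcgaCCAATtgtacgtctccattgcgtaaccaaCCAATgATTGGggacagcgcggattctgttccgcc
St3gal5: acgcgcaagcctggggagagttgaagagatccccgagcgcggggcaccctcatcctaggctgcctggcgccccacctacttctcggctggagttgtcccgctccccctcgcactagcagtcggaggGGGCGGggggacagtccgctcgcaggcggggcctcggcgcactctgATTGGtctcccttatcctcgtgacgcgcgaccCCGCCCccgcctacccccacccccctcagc
The CCAAT box was found 4 times in the stretch of Ormdl2, 1 time in that of St3gal5 and not in that of Galc. The GC box was found 1 time for Galc, 1 time for Ormdl2 and 2 times for St3gal5. The window searched for shares was the 250 bases before the start, on both strands, and 37 of the 41 genes had an entry. The CCAAT box was present for 15 of these 37 genes against 33.8% of 32851 promoters, and the GC box for 25 of 37 against 32.7%. The E-box CACGTG was present for 7 of 37 against 6.02%. The cyclic AMP response element TGACGTCA was present for 2 of 37 against 1.55%, and these last 2 motifs read the same on both strands. A gene with several promoters had several chances to hold a motif. Counted by promoter, 18 of 55 held the CCAAT box, 29 the GC box, 8 the E-box and 2 the response element. These are matches of letters only.

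Levels between genes were compared as TPM, the share of transcripts after correction for gene length. The 41 genes spanned from 0.00857 TPM for Sptlc3 to 147.7 TPM for Sgpl1, averaged over the 7 libraries. Sgpl1, the lyase that irreversibly cleaves sphingosine phosphate, was followed by the ceramide synthase Cers2 at 137.8 TPM and by Sptlc2, a catalytic subunit of serine palmitoyltransferase, at 129.8 TPM. In all, 9 genes averaged over 50 TPM and 6 averaged under 1 TPM.

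**Figure D1:**
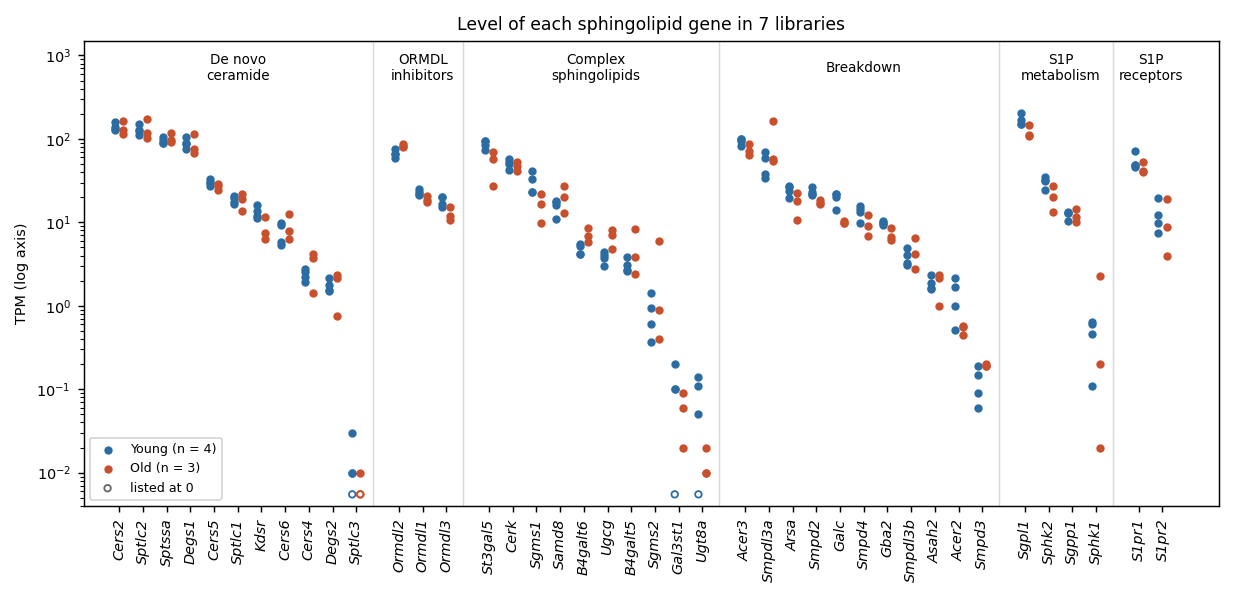
TPM of each of the 41 genes on a log axis, sorted by role and by mean level, with 1 point per library (blue, Young, n = 4; red, Old, n = 3). Open circles are values listed at 0, and the levels run from Sgpl1, with the highest mean, down to Sptlc3.

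The 6 genes under 1 TPM were Sptlc3, Ugt8a, Gal3st1, Smpd3, Sphk1 and Acer2, and they included both enzymes that make the glycolipids of myelin. Ugt8a, which makes galactosylceramide, had 6, 0, 19 and 14 counts in the young libraries and 1, 1 and 2 in the old libraries. Gal3st1, which makes sulfatide, had 0 to 13 counts in every library. The hydrolases for the same lipids were well detected, Galc at 15.5 TPM and Arsa, the lysosomal arylsulfatase for sulfatide, at 21.2 TPM. Oligodendrocytes are the usual source of Ugt8a and Gal3st1. Their 12 markers summed to 72.9 to 89.2 TPM per library, most of it from Cnp at 52.8 TPM. Mbp was at 8.12 to 15.3 TPM and Mag at 6.15 to 14.6 TPM, while Mog, Opalin and Ermn stayed at or below 0.22 TPM in every library. None of the 9 markers tested was lower in old libraries by an unadjusted p under 0.05 (edgeR), and Mobp was higher (log2 fold change 1.91, edgeR unadjusted p = 0.00959). The part of oligodendrocyte RNA in the values of Galc was not tested.

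Summed over the 41 genes, the level was 1347 ± 121.3 TPM (SD, n = 4) in Young and 1237 ± 204.3 TPM (SD, n = 3) in Old, and the groups overlapped. Of the 41 genes, 40 had enough reads to be tested, and Sptlc3 with 0 to 2 counts did not. Of the 40, 21 had a higher and 19 a lower fitted level in old microglia, while 51.2% of all genes tested had a log2 fold change below 0. The median log2 fold change was 0.04, against -0.01 over all 17559 genes tested. An adjusted p under 0.05 was reached by 1 gene, Galc, against 0.803% of all genes (edgeR). An unadjusted p under 0.05 was reached by 12 of the 40, or 30.0%, against 18.9% of all genes tested (edgeR). Of these, 5 were higher in Old, against 10.1% of all genes, and 7 were lower, against 8.79%. The ages did not overlap in 11 of the 40 genes, against 17.7% of all genes, with 5 higher in Old (8.67% of all genes) and 6 lower (9.07% of all genes). In bulk libraries of sorted cells, fewer cells of a type and less RNA per cell cannot be told apart.

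**Figure D2:**
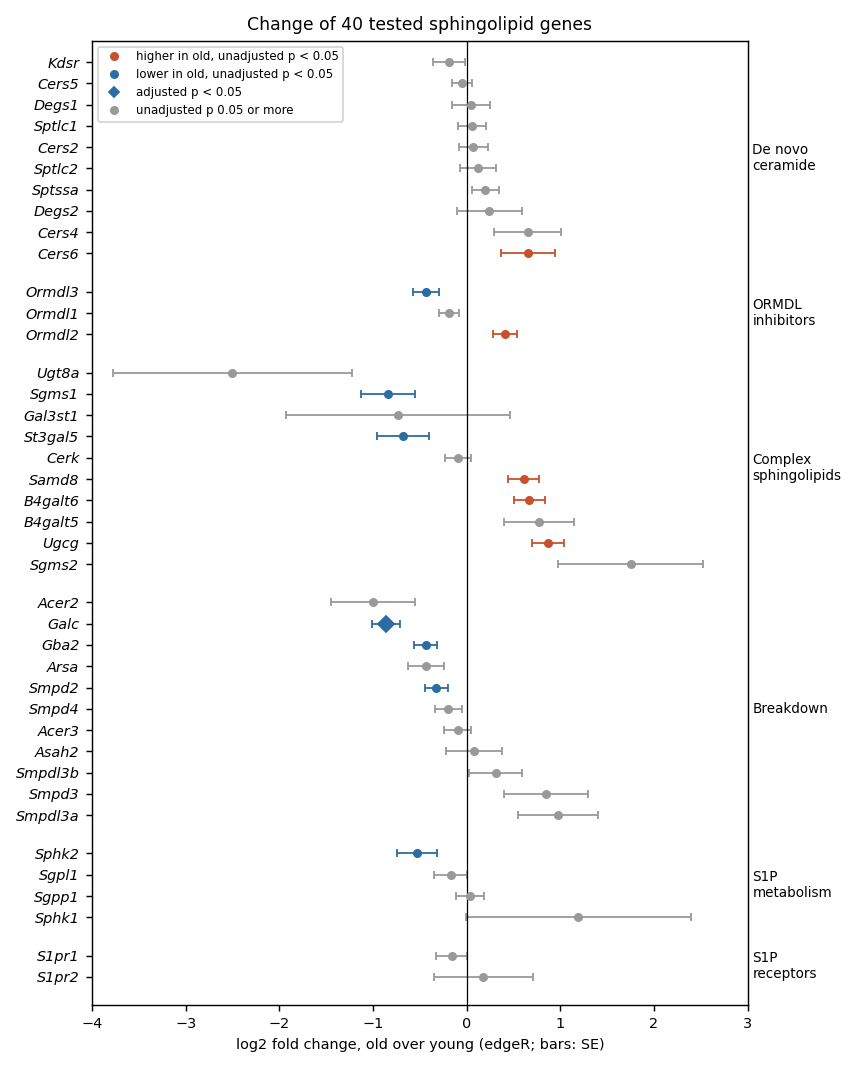
Log2 fold change of old over young for the 40 tested genes, grouped by role, with bars for the standard error of the edgeR fit. Galc (diamond) is the only gene with an adjusted p under 0.05, and the wide bars of Ugt8a, Gal3st1 and Sphk1 belong to genes with few reads.

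The genes of de novo ceramide synthesis mostly lay close to 0. Of 11 genes 10 were tested, 8 with a fitted level above and 2 below that of the young, with a median log2 fold change of 0.10. Without Old replicate 2 the split was 4 above and 6 below, with a median of -0.10. None passed the adjusted test, and in none did the ages separate. Cers2, which makes very long chain ceramides, measured 205, 189, 237 and 208 CPM in the young libraries and 201, 267 and 192 CPM in the old libraries. The groups overlapped throughout, and the log2 fold change of 0.07 (SE 0.154, edgeR adjusted p = 0.837) changed sign to -0.09 without Old replicate 2. Sptlc2 (log2 fold change 0.12, SE 0.189), Sptssa, a small activating subunit of the same enzyme (0.20, SE 0.143), and Degs1, the desaturase of the last step (0.05, SE 0.202), overlapped likewise. Without Old replicate 2 these were -0.15 for Sptlc2, 0.07 for Sptssa and -0.24 for Degs1. The other members had log2 fold changes of 0.05 for Sptlc1 (-0.12 without that library), -0.19 for Kdsr and -0.05 for Cers5. Degs2 was at 0.24, or 0.12 without Old replicate 2, 0.56 without Old replicate 1 and -0.02 without Old replicate 3. Cers4 was at 0.65, with 2.04 to 3.13 CPM in Young and 2.04 to 5.45 CPM in Old. Cers6, which makes long chain ceramides with a palmitoyl group, had the lowest p of this role. It measured 19.4, 19.1, 11.0 and 11.3 CPM in the young libraries and 19.3, 33.4 and 19.2 CPM in the old libraries. The upper pair of young libraries met the lower pair of old libraries, and the log2 fold change of 0.66 (SE 0.287, edgeR unadjusted p = 0.0493, adjusted p = 0.263) was 0.34 without Old replicate 2.

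The ORMDL proteins sit on serine palmitoyltransferase and restrain it when ceramide is high. Their 3 genes did not share a direction, and in all 3 the ages did not overlap, which held for 8.67% of all genes with Old higher and 9.07% with Old lower. Ormdl2, the most abundant at 73.7 TPM, measured 38.4, 41.6, 48.9 and 46.5 CPM in the young libraries and 60.8, 62.1 and 51.6 CPM in the old libraries. All old libraries were above all young ones, with a log2 fold change of 0.41 (SE 0.128, edgeR unadjusted p = 0.0117, adjusted p = 0.152). Ormdl3 measured 25.6, 30.0, 30.8 and 25.1 CPM in the young libraries and 21.0, 18.1 and 22.8 CPM in the old libraries. Here the old libraries were the lower ones, with a log2 fold change of -0.43 (SE 0.140, edgeR unadjusted p = 0.0136, adjusted p = 0.162). Ormdl1 showed a narrower gap, from 28.8 to 32.1 CPM in Young and from 26.0 to 28.0 CPM in Old (log2 fold change -0.19, SE 0.107, edgeR unadjusted p = 0.117). Added together, the 3 genes gave 107 ± 9.21 TPM (SD, n = 4) in Young and 115 ± 3.36 TPM (SD, n = 3) in Old. The label of the low-input libraries is non-stranded, and 66.7% of the exonic bases of Ormdl2 are shared with Dnajc14 on the opposite strand. Reads of the pair could be split only by estimate, and none of the 7 libraries gave Ormdl2 a whole count. Dnajc14 itself measured 77.4 ± 4.44 CPM in Young and 75.4 ± 6.06 CPM in Old (log2 fold change -0.04, edgeR unadjusted p = 0.736), and its part in the value of Ormdl2 was not tested.

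**Figure D3:**
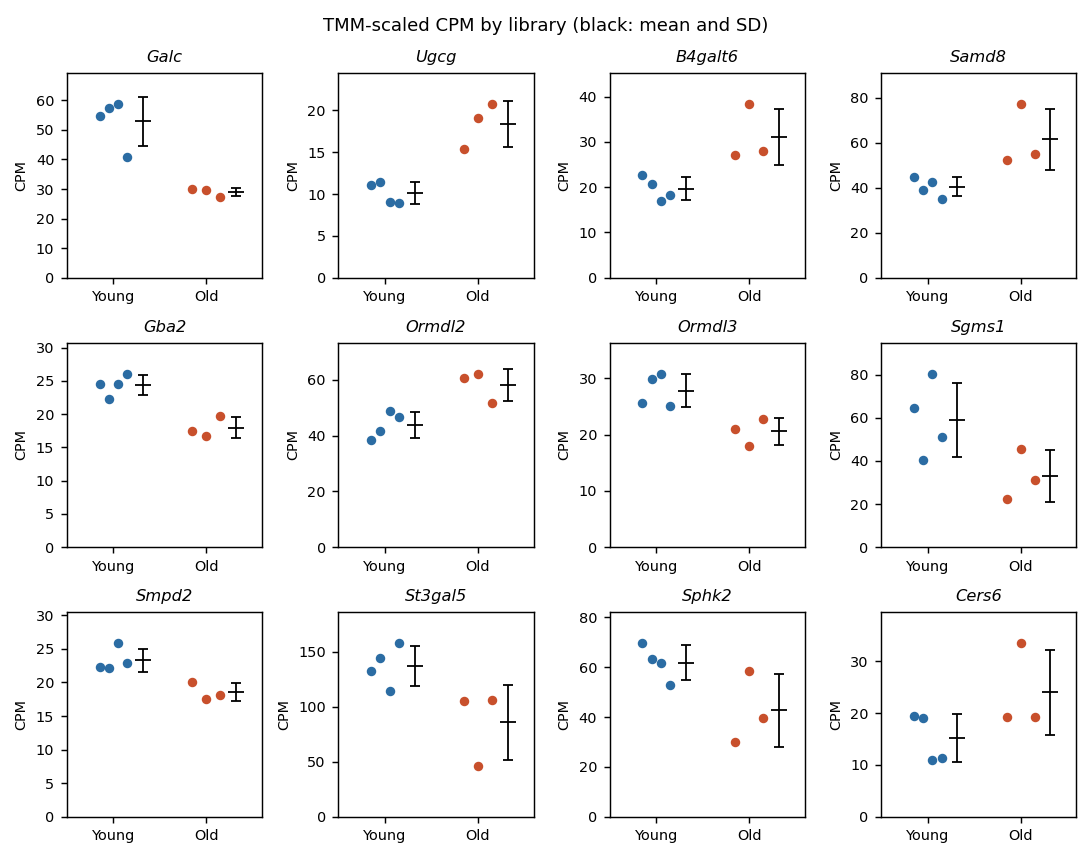
TMM-scaled CPM of the 12 genes with an unadjusted p under 0.05, ordered by p, with 1 point per library and the mean and SD in black. The old points lie apart from the young points in all but Sgms1, Sphk2 and Cers6.

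Among the 10 genes that turn ceramide into complex sphingolipids, the genes around glucosylceramide were on opposite sides of 0. As with Ugcg, B4galt6, which adds galactose to glucosylceramide, had higher values in Old. It measured 22.7, 20.6, 16.95 and 18.3 CPM in the young libraries and 27.2, 38.3 and 28.0 CPM in the old libraries. The groups did not overlap, with a log2 fold change of 0.67 (SE 0.167, edgeR unadjusted p = 0.00344, adjusted p = 0.0979). St3gal5, which adds the first sialic acid and so makes the simplest ganglioside of this series, was on the other side. It measured 132.6, 144.1, 114.6 and 157.5 CPM in the young libraries and 104.8, 46.2 and 106.2 CPM in the old libraries. The old libraries were the lower ones, and Old replicate 2 stood far below the others. The log2 fold change was -0.68 (SE 0.277, edgeR unadjusted p = 0.0377, adjusted p = 0.234), and -0.38 without Old replicate 2. Over the whole role, summed levels were 195 ± 10.5 TPM (SD, n = 4) in Young and 156 ± 19.3 TPM (SD, n = 3) in Old, with St3gal5 contributing 86.2 and 51.5 TPM of these.

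The genes around sphingomyelin also lay on both sides. Sgms1, the sphingomyelin synthase of the Golgi, measured 64.6, 40.5, 80.3 and 51.2 CPM in the young libraries and 22.1, 45.7 and 31.2 CPM in the old libraries. One old library exceeded the lowest young library, and the log2 fold change was -0.84 (SE 0.292, edgeR unadjusted p = 0.0192, adjusted p = 0.178). Samd8, a relative in the endoplasmic reticulum that makes ceramide phosphoethanolamine, measured 44.8, 39.2, 42.6 and 35.1 CPM in the young libraries and 52.3, 77.0 and 55.1 CPM in the old libraries. All old CPM values were higher, with a log2 fold change of 0.61 (SE 0.161, edgeR unadjusted p = 0.00487, adjusted p = 0.113). Sgms2, the sphingomyelin synthase of the plasma membrane, was at 1.48 to 3.49 CPM in 6 libraries and at 21.4 CPM in Old replicate 2. Cerk, the ceramide kinase, overlapped between ages (156 ± 16.7 CPM in Young, 146 ± 20.9 CPM in Old, log2 fold change -0.09, SE 0.142).

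The result of the test depended on the tool for some of these genes. DESeq2 on the same counts gave an adjusted p under 0.05 to 5 of the 40 genes, against 7.97% of all genes, namely Galc (8.31e-05), Ugcg (0.000252), B4galt6 (0.0129), Gba2 (0.0249) and Samd8 (0.0249), with log2 fold changes close to those of edgeR.

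Among the 11 breakdown genes 4 had a fitted level above and 7 below that of the young, with a median log2 fold change of -0.20. Apart from Galc, 2 of the 11 genes separated the ages downward, as did 9.07% of all genes. Gba2, the non-lysosomal glucosylceramidase, measured 24.6, 22.4, 24.5 and 26.0 CPM in the young libraries and 17.5, 16.7 and 19.7 CPM in the old libraries. All old libraries were lower, with a log2 fold change of -0.44 (SE 0.124, edgeR unadjusted p = 0.00695, adjusted p = 0.128). Smpd2, a neutral sphingomyelinase, ranged from 22.2 to 25.8 CPM in Young and from 17.5 to 20.1 CPM in Old (log2 fold change -0.33, SE 0.124, edgeR unadjusted p = 0.0283, adjusted p = 0.209). For Smpd2, 20.3% of the exonic bases are shared with Mical1 on the opposite strand, which was itself lower in Old (61.3 ± 5.25 against 40.8 ± 12.5 CPM, log2 fold change -0.59, edgeR unadjusted p = 0.0146), and its part in the value was not tested. Smpd3, another neutral sphingomyelinase, separated the ages upward on only 11.0 to 32.1 expected counts per library (log2 fold change 0.84, SE 0.450, edgeR unadjusted p = 0.0947).

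The remaining breakdown genes overlapped between ages. Arsa measured 48.1, 53.6, 51.7 and 41.3 CPM in the young libraries and 25.1, 39.4 and 43.6 CPM in the old libraries, with a log2 fold change of -0.43 (SE 0.195, edgeR unadjusted p = 0.0549). The highest old library thus lay above the lowest young one. Without Old replicate 1, the library with the lowest Arsa, its log2 fold change was -0.23. Acer3, an alkaline ceramidase and the most abundant breakdown gene at 85.3 TPM, had a log2 fold change of -0.10 (SE 0.145), and of -0.02 without Old replicate 2. Smpdl3a, a relative of acid sphingomyelinase, was at 45.1 to 93.9 CPM in 6 libraries and at 245.3 CPM in Old replicate 2. Acer2 was at 1.45 to 5.40 CPM in Young and 1.28 to 1.62 CPM in Old (edgeR unadjusted p = 0.0535). Smpd4, Smpdl3b and Asah2 had log2 fold changes of -0.20, 0.31 and 0.08. Smpdl3b was at 0.02 without Old replicate 3 and 0.55 without Old replicate 2. Asah2 was at -0.20 without Old replicate 1 and 0.36 without Old replicate 2.

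Of the enzymes of sphingosine phosphate, Sphk2, the broadly expressed sphingosine kinase, measured 69.5, 63.3, 61.5 and 52.7 CPM in the young libraries and 30.0, 58.6 and 39.6 CPM in the old libraries. Old replicate 2 lay within the young range, and the log2 fold change was -0.53 (SE 0.218, edgeR unadjusted p = 0.0385, adjusted p = 0.236). It was -0.83 without Old replicate 2 and -0.33 without Old replicate 1, the library with the lowest value. Sphk2 shares 12.96% of its exonic bases with Dbp and 8.97% with Rpl18, both on the opposite strand. Its sister kinase Sphk1 had 1 to 136 counts, with the 136 in Old replicate 2, and its log2 fold change of 1.19 (SE 1.20) was -1.85 without that library. Sgpp1, a phosphatase that returns sphingosine, overlapped between ages (log2 fold change 0.03, SE 0.152).

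The receptors of sphingosine phosphate overlapped between ages. S1pr1 measured 103.5, 100.3, 150.4 and 104.6 CPM in the young libraries and 98.3, 97.9 and 111.4 CPM in the old libraries. The 150.4 CPM of Young replicate 3 was the only value far from the rest, and the log2 fold change was -0.16 (SE 0.165, edgeR adjusted p = 0.632), or -0.0032 without that library. Endothelial cells are rich in S1pr1, and their 9 markers summed to 94.96, 58.54, 127.8 and 98.66 TPM in the young libraries and 46.8, 53.5 and 38.0 TPM in the old libraries, highest in the same Young replicate 3. The most abundant was Cldn5 at 30.0 TPM, and Cdh5 and Tek stayed below 1.4 TPM in every library. Of the 9 endothelial markers 5 were lower in Old by an unadjusted p under 0.05 (edgeR). Pericyte markers were also highest in Young replicate 3, at 18.9 TPM against 2.61 to 14.1 TPM elsewhere. The part of both cell types in the values of S1pr1 was not tested. S1pr2 ranged from 14.8 to 35.1 CPM in Young and from 10.2 to 50.3 CPM in Old, with the highest value in Old replicate 2. Its log2 fold change of 0.18 (SE 0.529) was -0.82 without that library (SE 0.356, edgeR unadjusted p = 0.0496, adjusted p = 0.283).

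Counts and TPM disagreed for some members. TPM also divides by the effective length, the average length of the transcripts that RSEM assigned to a gene in a library. In addition, TPM is scaled within each library and without the TMM factors. With an effective-length offset in the edgeR fit, 2 of the 40 genes had the other sign than in the main fit. In that fit the log2 fold change of Kdsr was -0.56, against -0.19 in the main fit. Likewise Sgpl1 was at -0.36 against -0.17 and Acer3 at -0.24 against -0.10. Cers6 was at 0.36 against 0.66 and Samd8 at 0.47 against 0.61. The part of scaling in the single genes below was not tested. In TPM the ages did not overlap in 11 of the 40 genes, against 17.5% of all genes, with 3 higher and 8 lower in Old. The shares of all genes by direction were not computed for TPM. Samd8 and Smpd3, separated in CPM, overlapped in TPM, and Sgpl1 and Sgms1 were separated in TPM alone. Samd8 had 10.8 to 18.1 TPM in Young and 13.1 to 27.4 TPM in Old, and on the log2(TPM + 1) scale its log2 fold change was 0.31 (limma adjusted p = 0.552). Sgpl1 was lower in Old, with 168.7, 151.4, 201.6 and 148.8 TPM in the young libraries and 107.6, 145.0 and 110.5 TPM in the old libraries. In CPM it overlapped, at 346 to 456 CPM in Young and 297 to 432 CPM in Old (log2 fold change -0.17, SE 0.173). Its effective length was 3196 to 3336 bases in Young and 3610 to 3833 bases in Old. Kdsr, the reductase of the second step of ceramide synthesis, had the greatest ratio, with 2768 to 2950 bases in Young and 3461 to 4219 bases in Old, 1.33 times longer on average. Its log2 fold change of -0.19 in counts was -0.62 on the log2(TPM + 1) scale (limma adjusted p = 0.2001), and those of Acer3 and Cers6 were -0.33 and 0.21 there. An effective length at least 1.1 times longer in Old, with no overlap, was found for 4 of the 40 genes (Kdsr, Cers6, Sgpl1 and Acer3), against 5.49% of all genes tested, and a shorter one by the same rule for none, against 2.32% of all genes. On the log2(TPM + 1) scale, 8 of the 40 genes had the other sign than in CPM, and all genes tested had a median of -0.07. Which transcripts made up the difference was not analysed here.

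**Figure D4:**
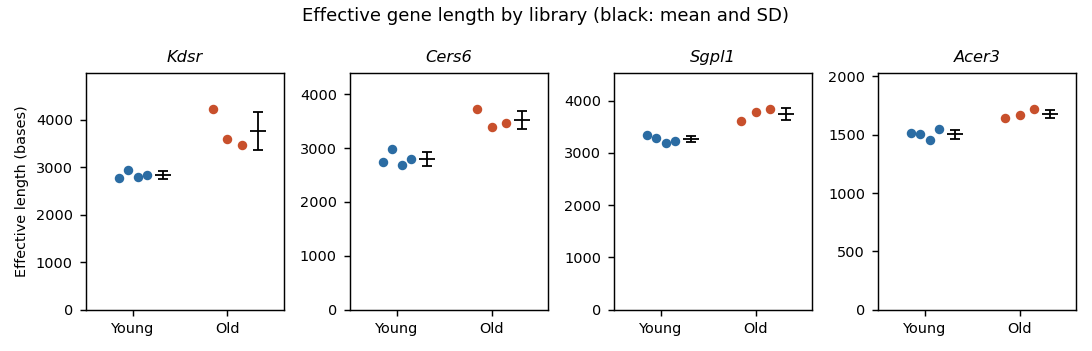
Effective length in bases of Kdsr, Cers6, Sgpl1 and Acer3 in each library, with the mean and SD in black and axes from 0. In each gene the 3 old points lie above the 4 young points.

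Old replicate 2 also stood apart in the sphingolipid genes. It had the highest of the 7 values for 14 and the lowest for 10 of the 40 genes, together more than any other library. It was highest for Sgms2, Smpdl3a, B4galt5 (27.3 CPM against 7.81 to 11.5 CPM), Sphk1 and S1pr2, and lowest for St3gal5. This was the library rich in monocyte RNA.

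**Figure D5:**
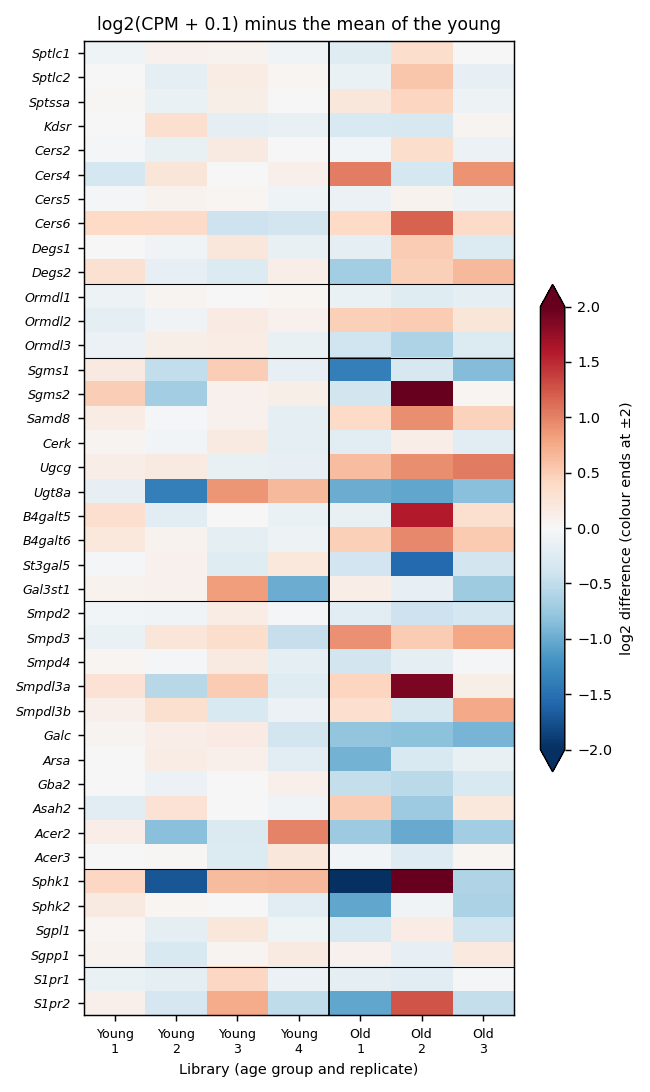
Difference of log2(CPM + 0.1) from the mean of the young libraries for 40 genes (rows, grouped by role) in 7 libraries (columns); red is higher and blue lower, and colours end at ±2. In the column of Old replicate 2, Sgms2, Sphk1, Smpdl3a and B4galt5 are high and St3gal5 is low. Sphk1, a gene with few reads, is low in Old replicate 1, at 0.0298 CPM, and also in Young replicate 2, at 0.0671 CPM.

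Without Old replicate 2, 19 of the 40 genes had ages that did not overlap, against 28.7% of all genes. Of these, 12 were lower and 7 higher in the remaining 2 old libraries, and the shares of all genes by direction were not computed. The median log2 fold change of the 40 genes was then -0.14, against -0.02 over all genes tested. Of the 40, 26 were below 0, against 51.9% of all genes tested. The 7 genes that changed sign were Sptlc1, Sptlc2, Cers2, Degs1, Sgms2, Sphk1 and S1pr2. Sgms2 went from a log2 fold change of 1.75 to -0.21, Smpdl3a from 0.97 to 0.22, and B4galt5 from 0.77 to 0.09. An unadjusted p under 0.05 (edgeR) was reached by 5 higher genes (8.13% of all genes) and 7 lower genes (9.51% of all genes). Cers4 and S1pr2 joined these and Cers6 and Smpd2 left them. Galc kept its value (-0.88, edgeR adjusted p = 0.0672), Ugcg was at 0.84, B4galt6 at 0.49 and Gba2 at -0.39. The values of Galc, Ugcg and Gba2 were thus nearly as large without this library, while those of Sgms2, Smpdl3a and B4galt5 rested on it.

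Of 47 further sphingolipid genes outside the 41, 46 were in the files and 38 were tested. In all, 18 had a fitted level above and 20 below that of the young, with a median log2 fold change of -0.05. None passed the adjusted test (edgeR), and 3 were higher (10.1% of all genes) and 4 lower (8.79% of all genes) by an unadjusted p under 0.05, counts near those shares. Those higher were Psap, the precursor of the saposins that present sphingolipids to lysosomal hydrolases (6403 ± 747 CPM in Young, 10350 ± 4120 CPM in Old, log2 fold change 0.69, edgeR unadjusted p = 0.033), the ganglioside activator Gm2a (0.49) and the glycolipid transfer protein Gltp (0.36). Psap was at 14990 CPM in Old replicate 2, at 8941 and 7126 CPM in the other old libraries and at 5518 to 7194 CPM in Young, and its log2 fold change was 0.33 without Old replicate 2 (edgeR unadjusted p = 0.147). Those lower were the receptor S1pr4 (4.11 ± 1.38 against 1.89 ± 0.233 CPM, log2 fold change -1.12, edgeR unadjusted p = 0.00684), A4galt, Cers1 and the lysosomal galactosidase Glb1 (-0.36). Without Old replicate 2, 13 of the 38 genes were above and 25 below 0, against 51.9% below 0 among all genes. By an unadjusted p under 0.05 (edgeR), 1 was higher (8.13% of all genes) and 3 were lower (9.51% of all genes). Of the 7 genes named, A4galt and S1pr4 were still among these, Psap, Gm2a, Gltp, Cers1 and Glb1 were not, and Spns2 and B4galnt1 joined them. In all libraries the ages did not overlap in 2 of the 38 genes (17.7% of all genes), both lower in Old (9.07% of all genes), namely S1pr4 and Hexa, a subunit of lysosomal hexosaminidase (1687 to 1944 CPM in Young, 1383 to 1613 CPM in Old, log2 fold change -0.27, edgeR unadjusted p = 0.0973).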

How the data were processed

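Bodipy+ microglia of 4 young and 3 old mice were sequenced after Smart-seq2 amplification, 1 library per mouse. The authors used skewer for trimming, STAR for mapping to GRCm38 and RSEM with GENCODE m15 for expected counts and TPM. For STAR and RSEM the versions are not given in the sources used. The deposited expected counts are not normalized, the deposited TPM values are scaled within each library, and the deposited effective length of each gene is in bases. The labels call these libraries non-stranded, and amplified reads are not independent molecules.

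Expected counts were rounded. A gene entered the test if any library exceeded a count of 10, and 614 genes of the sex chromosomes or mitochondria were dropped, leaving 17559. In R 4.3.3, edgeR 4.0.16 gave TMM factors and the two-sided quasi-likelihood test with age as the only term; standard errors are the log2 fold change divided by the square root of F. Alternatives were limma 3.58.1 (voom, and on log2(TPM + 1) and log2(TPM + 0.1)), DESeq2 1.42.0, RLE factors, other filters, an effective-length offset, X, Y and M genes kept, and omission of each library. Scripts were tested on simulated data. An exact permutation test of 3 against 4 cannot go below 0.0286.

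Total expected counts were 36574083 to 53002386. Gene positions and exon overlaps came from GENCODE vM21, which lacked 224 of 50686 identifiers. Members, their roles, the 47 further genes and the marker lists were chosen with earlier results of these data known. The named members are those with an unadjusted p under 0.05, those whose ages do not overlap and the most abundant of each role; Sptlc2, Sptssa, Degs1, Arsa, Acer2, Cerk, Sgpp1, Kdsr and the genes extreme in Old replicate 2 were added after their values were seen, as was the 1.1 ratio of effective lengths. T cell, neutrophil, B cell, astrocyte, pericyte and neuron markers were also summed. The authors' FPKM values and isoform percentages were not used.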

Additional observations from a re-analysis of the deposited data

Results flagged for a closer look

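S1pr1 was the only 1 of the 40 tested genes in which a young library stood far from the other 3 by Dixon's criterion. Young replicate 3 measured 150.4 CPM and the others 100.3 to 104.6 CPM, and the gap to the nearest library made up 0.914 of the range and exceeded the 95% critical value. Without that library the log2 fold change of S1pr1, -0.16, was -0.0032 (edgeR adjusted p = 0.992). Chance alone would give about 2 of 40. Endothelial and pericyte markers were also highest in that library (127.8 and 18.9 TPM), and their part in the value was not tested.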

How the results depend on the processing

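edgeR called 141 genes, DESeq2 1399, the fit with no filter on low counts 288, the fit with an effective-length offset 213, limma on log2(TPM + 1) 64 and on log2(TPM + 0.1) 71. Leaving out each library in turn gave 1 to 159 calls. The median log2 fold change of the sphingolipid genes, 0.04, was -0.0665 with limma-voom, -0.0635 on log2(TPM + 1) and -0.15 on log2(TPM + 0.1), where all genes tested had medians of -0.03, -0.07 and -0.13, and it ranged from -0.1398 to 0.0737 over the omissions. The 11 genes with ages that do not overlap, against 17.7% of all genes, became 11 to 19. The share of all genes then ranged from 12.4% to 31.7%. The 19 came without Old replicate 2, where that share was 28.7%. Cers2 changed sign on both TPM scales (-0.0486 and -0.049) and ranged from -0.0921 to 0.1585 over the omissions. Galc missed the threshold on both TPM scales (limma adjusted p = 0.0806 and 0.0672) and in every omission, and Ugcg passed it with filterByExpr (edgeR adjusted p = 0.0488). In the other genes named by the rule no alternative turned the direction, whereas 7 of the 40 genes had the other sign without Old replicate 2. The causes were not tested. No paired analysis was run, since nothing in the labels beyond the replicate number ties a young to an old library. The library names of Young end in C and those of Old in posI, so the naming followed age.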

Other observations

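Neutrophil markers summed to 3.93 to 323.2 TPM, led by S100a8, B cell markers to 31.9 to 206.2 TPM, nearly all of it from Ighm, and astrocyte markers to 40.3 to 98.9 TPM, led by Slc1a3. T cell markers summed to 1.12 to 6.82 TPM, pericyte markers to 2.61 to 18.9 TPM and neuron markers to 0.89 to 2.84 TPM. Of the 6 T cell markers 5 were higher in Old in the edgeR test, at an unadjusted threshold of 0.05. Their part in the sphingolipid values was not tested.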
